A study of Mus musculus with 26 samples.

Results

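Gene expression in lacrimal glands was compared between 20 and 12 weeks of age in male C57BL/6.NOD-Aec1Aec2 mice, using the 5 arrays labelled 20 weeks and the 6 labelled 12 weeks, 11 of the 26 arrays in the series. The strain is a model of primary Sjögren's syndrome: intervals from the NOD mouse, Idd3 on chromosome 3 and Idd5 on chromosome 1, were bred into C57BL/6, and every mouse at both ages carries them. The submitters' labels place the first entry of leukocytes into the gland at 12 weeks and the early clinical disease, with loss of secretion, at 20 weeks; the other ages were 4, 8 and 16 weeks. No array of a strain without the NOD intervals was used here, so the effect of age and that of disease cannot be told apart. The labels call the replicates biological and do not say whether an array holds 1 animal or a pool. The p-values therefore set the difference between ages against the spread among arrays, which need not be that among animals. For genes that spread is pooled over the 26 arrays of all ages.

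The lacrimal gland makes the watery part of tears. Its acinar cells synthesise proteins on ribosomes of the endoplasmic reticulum, where the signal peptide is removed, sugars are attached and disulfide bonds form. The cargo then passes through the Golgi into granules that are released on nerve stimulation, while ion pumps and water channels move fluid. In Sjögren's syndrome lymphocytes gather in the gland and tear output falls, and the disease is known for autoantibodies, plasma cells and a type I interferon response.

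Values are deposited log2 expression levels, with 1 probe set standing for each gene. A gene was tested if it exceeded the array median on at least 4 of the 26 arrays, which kept 12376 of 18193 genes, and it was called changed at a Benjamini-Hochberg adjusted p under 0.05 in a limma fit over all ages. A level under 4.04, which is 1 log2 unit above the typical array median, is described as near background. A change to or from such a level is a lower bound.

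One array stood apart. On the array labelled 20 weeks replicate 1 the log2 values had an SD of 1.36, against 1.93 to 2.12 on the other 20 week arrays and 1.96 to 2.27 on the 12 week arrays. Its median correlation with the arrays of its own age was 0.869, against 0.976 to 0.980 for the other 20 week arrays. Spread was narrower at 20 weeks (1.87 ± 0.296, SD, n = 5) than at 12 weeks (2.15 ± 0.125, SD, n = 6; two-sided exact permutation p = 0.0216). Without that array the 20 week value was 1.998 ± 0.0840 (n = 4; exact permutation p = 0.0714). The difference between the 3' and 5' Gapdh control signals, a measure of RNA integrity, was also larger at 20 weeks, 2.54 ± 0.399 (n = 5) against 1.80 ± 0.406 (n = 6) on the log2 scale (exact permutation p = 0.0216). It was still larger without replicate 1, at 2.40 ± 0.300 (n = 4; exact permutation p = 0.0429). The same measure for actin was 3.89 ± 0.889 and 3.69 ± 0.516 (exact permutation p = 0.662, n = 5 and n = 6). The part of spread in the results was not tested beyond the fits given with each result. With the actin difference as a covariate 2600 genes were called, 762 higher and 1838 lower. No fit used the Gapdh difference, the one that differed between ages, so the part of RNA integrity was not tested. Called genes and lists are given with all arrays and again without 20 weeks replicate 1.

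**Figure D1:**
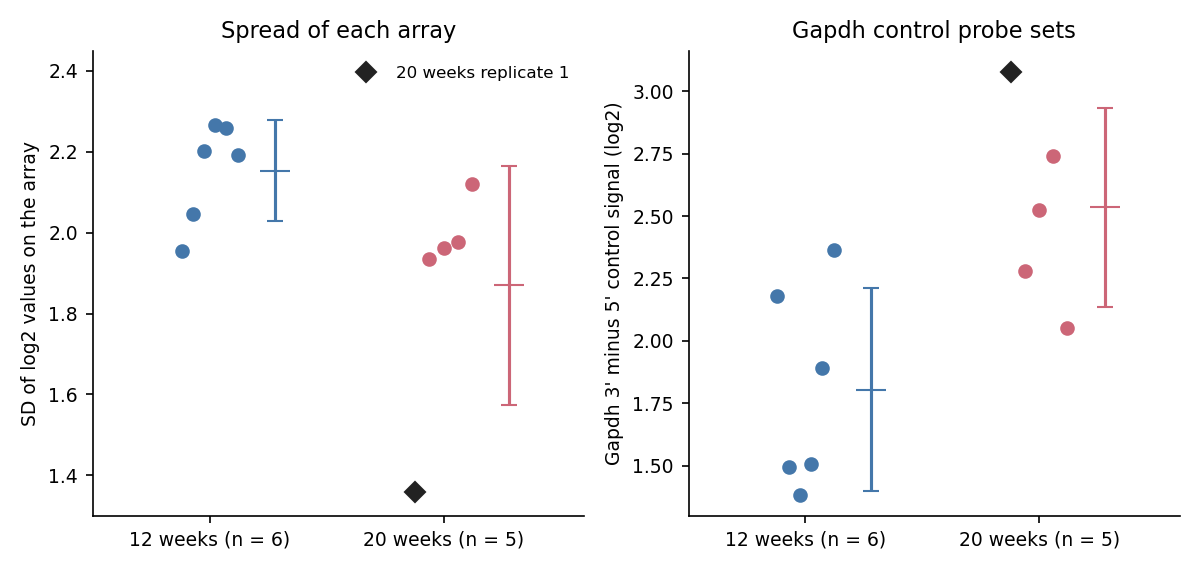
Each point is an array, at 12 weeks (blue, n = 6) or 20 weeks (red, n = 5, with replicate 1 as a black diamond); bars are the mean ± SD. The left axis is the SD of log2 values on the array and the right axis the Gapdh 3' minus 5' control signal in log2 units. The diamond lies at 1.36 on the left, below all other arrays, and at 3.08 on the right, above them.

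At 20 weeks 1999 genes were lower (16.2% of those tested) and 1079 were higher (8.72%) than at 12 weeks, 3078 in all (24.9%). Without 20 weeks replicate 1, 998 genes were lower (8.06%), 281 were higher (2.27%) and 1279 were changed (10.3%). The calls shared by both fits were 986 lower (7.97%) and 178 higher genes (1.44%), 1164 in all (9.41%). Every 20 week array lay below every 12 week array for 4.57% of genes and above for 0.76%; without replicate 1 the shares were 4.94% and 2.06%. The share of lower genes was larger among those with high signal. Of 2625 genes with a mean level over 7, 825 (31.4%) were lower with all arrays and 424 (16.2%) without replicate 1. Their median change was -0.92 and -0.42. Most lower genes therefore had a mean level of 7 or less. For genes with a mean level of 5 to 7 the median change was -0.59 and -0.36. Over all genes the median change was -0.09 and -0.01. Quantile normalization, which gives every array the same distribution, gave a median of -0.16 for the genes over 7, and 1051 lower and 1166 higher genes. A fit with the SD of each array as a covariate gave a median of 0.06 for them, with 257 lower and 303 higher genes.

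These 2 fits end the calls of some genes described below. With array SD as a covariate, the calls of Abo (adjusted p = 0.0513), Hsp90b1 (0.0638), Creld2 (0.119), Slc35b2 (0.0692), Vamp8 (0.178), Rab27a (0.320), Aqp8 (0.0677), Atp1b3 (0.278), Aqp1 (0.218), Gna11 (0.0616) and Egf (0.256) were lost. The same fit ended those of Mki67 (0.0811), Mcm7 (0.141), Pcna (0.151), Btg2 (0.104), Ssb (0.114), Ntmt1 (0.173) and Ifit1 (0.109). Quantile normalization ended the calls of Syvn1, Sec13, Gna11, Txn2 and Ltbr, given with those genes, and of Vamp8 (0.0910), Krt8 (0.0752) and Ifit1 (0.0678). The directions held in these fits except for Ltbr.

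Where a gene had several probe sets, their average moved less than the chosen one for many genes. The average change was smaller by over 1.5 times for Pdia6 (-1.46), Pdia3 (-1.43), Slc35b2 (-2.001), Rab27a (-0.34), Epcam (-1.17), Psmd4 (-1.20), Cdt1 (-1.15), Mcm7 (-1.29), Cab39 (-1.69) and Ssb (-0.48). Among the higher genes it was smaller for Gsdme (1.27), Fam107a (0.97), Zfp263 (1.03), Ntmt1 (0.45) and Dbp (1.57). Pabpc4l, Sulf2, Ighm, Ptbp1, Pik3r1 and Clock have theirs beside their values.

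**Figure D2:**
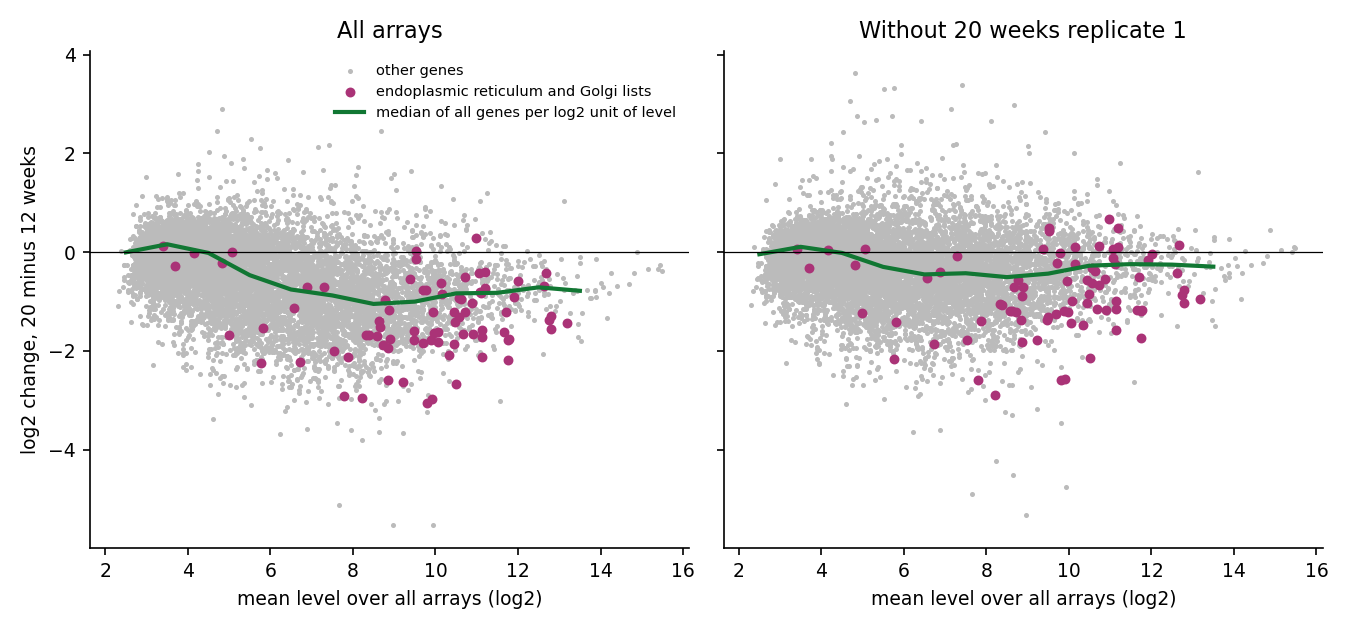
Each point is 1 of the 12376 genes tested, with its mean log2 level over all arrays on the x axis and its log2 change from 12 to 20 weeks on the y axis; the left panel has all arrays and the right panel leaves out 20 weeks replicate 1. Members of the 3 lists of the endoplasmic reticulum and Golgi are purple, and the green line is the median of all genes per log2 unit of level. The line lies below 0 for genes with high signal, less so in the right panel, and most purple points lie below the line.

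Many genes of the endoplasmic reticulum were lower at 20 weeks. Of the 27 tested chaperones and unfolded protein response genes, 13 were lower and none was higher, with a median change of -1.32. Without replicate 1, 8 were lower and none was higher, with a median of -0.76. The median was -0.65 under quantile normalization (9 lower) and -0.33 with array SD as a covariate (4 lower). The median level of these genes was 10.1, and of all genes over 7 31.4% were lower, and 16.2% without replicate 1. In bulk glands, fewer acinar cells and less RNA per acinar cell cannot be told apart.

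Many chaperone genes are induced through a promoter motif known as the endoplasmic reticulum stress response element, read by ATF6 together with NF-Y. The letters CCAAT and CCACG with 9 bases of any kind between them, 19 bases in all, were looked for on both strands of the RefSeq promoter windows (GRCm38.p6), which run from 250 bases before to 50 after each start. Windows were found by symbol for 23 of the 27 tested members, and 9 of the 23 held the motif, as did 37 of all 27025 genes with a window (0.137%). Of the 9 members with the motif 4 were lower at 20 weeks, both with all arrays and without replicate 1. Of the 14 without it 7 were lower, and 3 without replicate 1. The 250 bases before the start are shown for the 4 lowered genes, which were picked for holding the motif. Hspa5, Calr, Canx, Dnajc3 and Derl3 also hold it and were not called in either fit. Motif letters are in capitals, in the 5′ to 3′ direction of the gene.
Hsp90b1 (chr10:86705445-86705694, minus strand): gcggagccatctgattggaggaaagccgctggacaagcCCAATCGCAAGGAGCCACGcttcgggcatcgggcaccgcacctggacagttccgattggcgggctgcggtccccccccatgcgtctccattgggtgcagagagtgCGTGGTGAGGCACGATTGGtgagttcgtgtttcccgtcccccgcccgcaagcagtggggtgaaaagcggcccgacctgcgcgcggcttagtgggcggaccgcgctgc
Pdia6 (chr12:17266339-17266588, plus strand): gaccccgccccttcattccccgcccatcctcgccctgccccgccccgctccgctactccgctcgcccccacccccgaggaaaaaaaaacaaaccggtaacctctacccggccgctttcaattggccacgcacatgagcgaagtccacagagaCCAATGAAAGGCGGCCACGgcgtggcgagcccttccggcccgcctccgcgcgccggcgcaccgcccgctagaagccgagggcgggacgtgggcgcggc
Creld2 (chr15:88819396-88819645, plus strand): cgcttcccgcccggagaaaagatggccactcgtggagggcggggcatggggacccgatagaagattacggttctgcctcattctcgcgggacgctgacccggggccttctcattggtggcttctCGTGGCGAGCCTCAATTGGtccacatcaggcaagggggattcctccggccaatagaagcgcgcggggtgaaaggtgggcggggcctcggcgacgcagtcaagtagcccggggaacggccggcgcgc
Syvn1 (chr19:6046326-6046575, plus strand): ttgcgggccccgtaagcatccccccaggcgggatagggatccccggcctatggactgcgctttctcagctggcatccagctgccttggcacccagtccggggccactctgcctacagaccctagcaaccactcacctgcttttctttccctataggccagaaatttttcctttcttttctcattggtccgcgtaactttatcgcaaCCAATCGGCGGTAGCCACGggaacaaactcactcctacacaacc
Hsp90b1 holds 2 copies, 1 on each strand, Pdia6 and Syvn1 hold it on the gene's strand and Creld2 on the other. A match describes the letters only and says nothing about binding in these glands.

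Pdia6, a disulfide isomerase that forms and reshuffles disulfide bonds in new proteins, had 12 week levels from 8.58 to 10.11 with a median of 9.41. Its 20 week levels were 6.20, 6.16, 6.16, 6.66 and 7.15 on replicates 1 to 5. Every 20 week array lay below every 12 week array, and replicate 1 was no lower than the others. The change was -2.96 (SE 0.39, adjusted p = 0.000391), or 7.76-fold lower, and -2.89 without replicate 1 (adjusted p = 0.000558). Pdia6 was called lower in all 26 settings tried.

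Dnajb11, a co-chaperone of the main chaperone of the endoplasmic reticulum, BiP, ranged from 7.25 to 8.16 at 12 weeks with a median of 7.48. At 20 weeks it read 3.97 on replicate 1 and 6.03, 5.05, 5.79 and 6.07 on the others, so the ages did not overlap with or without that array. It fell by 2.22 (SE 0.37, adjusted p = 0.00139) and by 1.87 without replicate 1 (adjusted p = 0.00296). Pdia3, the isomerase that works on glycoproteins, ranged from 8.86 to 11.43 with a median of 11.26 at 12 weeks and read 6.24, 6.92, 8.15, 8.21 and 9.63 at 20 weeks. The ages overlapped because 12 weeks replicate 1 was low at 8.86, and the change was -2.97 (SE 0.57, adjusted p = 0.00288), or -2.57 without 20 weeks replicate 1 (adjusted p = 0.00904).

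Syvn1, the ubiquitin ligase that marks misfolded proteins for export and degradation, had 12 week levels of 8.98 to 10.60 with a median of 10.28. The 20 week levels were 7.56, 8.88, 8.27, 8.79 and 8.69, all below the 12 week range. Its change was -1.60 (SE 0.33, adjusted p = 0.00451) and -1.39 without replicate 1 (adjusted p = 0.0150), but -0.70 under quantile normalization (adjusted p = 0.0690). Hsp90b1, the HSP90 chaperone of this compartment, changed by -1.77 (adjusted p = 0.00823) and by -1.17 without replicate 1 (adjusted p = 0.00824). Creld2, a gene induced when proteins misfold there, changed by -2.60 (adjusted p = 0.0146) and by -1.83 (adjusted p = 0.0446). Replicate 1 was far below the rest for both, at 8.09 for Hsp90b1, where the others read 10.81 to 11.51, and at 4.12 for Creld2, where the others read 7.90 to 8.21. Hspa5, which encodes BiP, changed by -1.29 and did not pass the test (adjusted p = 0.154; -0.76 and 0.444 without replicate 1).

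Entry into the endoplasmic reticulum and N-glycosylation gave a larger median change, with 14 of 23 tested genes lower and none higher and a median change of -1.67. Without replicate 1, 8 were lower and the median was -0.99. Quantile normalization gave a median of -0.92 (10 lower), and array SD as a covariate gave -0.36 (6 lower). The median level of these genes was 10.4, where 31.4% of all genes over 7 were lower, and 16.2% without replicate 1. Spcs3, a subunit of the signal peptidase, ranged from 10.58 to 12.02 with a median of 11.56 at 12 weeks and read 6.69, 9.15, 9.28, 9.29 and 9.67 at 20 weeks. The ages did not overlap, and the 4 arrays other than replicate 1 lay close together. Its change was -2.68 (SE 0.39, adjusted p = 0.000655) and -2.15 without replicate 1 (adjusted p = 0.000266). Spcs2, another subunit, changed by -2.19 (adjusted p = 0.00562) and by -1.74 (adjusted p = 0.0177), again with no overlap.

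Srp9, part of the signal recognition particle that brings ribosomes to the membrane, had 12 week levels of 9.70 to 11.17 with a median of 10.95. It read 7.42, 9.11, 9.25, 9.33 and 9.36 at 20 weeks, below all 12 week arrays. The change was -1.81 (SE 0.37, adjusted p = 0.00377) and -1.45 without replicate 1 (adjusted p = 0.0107). Ddost, a subunit of the complex that transfers sugar chains, ranged from 6.64 to 9.80 with a median of 9.70 at 12 weeks and read 4.96, 6.25, 6.24, 6.83 and 6.91 at 20 weeks. Only 12 weeks replicate 1, at 6.64, lay within the 20 week range, and the change was -2.91 (SE 0.58, adjusted p = 0.00356), or -2.59 without 20 weeks replicate 1 (adjusted p = 0.0114).

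Of 30 tested genes of transport between the endoplasmic reticulum and the Golgi, 17 were lower and none was higher, with a median of -1.31. Without replicate 1, 9 were lower and 1 was higher, with a median of -0.87. The median was -0.54 under quantile normalization (11 lower) and -0.26 with array SD as a covariate (4 lower). The median level of these genes was 9.19, where 31.4% of all genes over 7 were lower, and 16.2% without replicate 1. Uso1, which tethers arriving vesicles, ranged from 9.44 to 11.49 with a median of 11.02 at 12 weeks. It read 5.83, 8.03, 7.90, 8.19 and 8.77 at 20 weeks, so that the lowest 12 week array was above the highest 20 week array. The change was -3.06 (SE 0.46, adjusted p = 0.000701) or 8.34-fold lower, and -2.58 or 5.99-fold lower without replicate 1 (adjusted p = 0.000944). Under quantile normalization it was -2.24 and with array SD as a covariate -1.91, and it was called in both.

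Mcfd2, a helper of the ERGIC-53 cargo receptor, ranged from 11.82 to 12.69 with a median of 12.47 at 12 weeks and read 8.31 on 20 weeks replicate 1 and 11.03, 11.19, 11.22 and 11.34 on the others. No array overlapped, but the size depended on replicate 1: the change was -1.78 (SE 0.37, adjusted p = 0.00441) with it and -1.20 (adjusted p = 0.000815) without it. Sec24d, a subunit of the coat that forms export vesicles and selects their cargo, changed by -2.01 (adjusted p = 0.00375) and by -1.78 without replicate 1 (adjusted p = 0.0129), and its ages overlapped at 6.69 and 6.70. Sec13, from the outer layer of that coat, changed by -1.39 (adjusted p = 0.00375) and by -1.19 (adjusted p = 0.0128) without overlap, and by -0.45 under quantile normalization (adjusted p = 0.126).

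The 12 largest falls called in both fits were those of Col7a1, Abo, Srsf5, Pik3r1, Cdt1, Slc35a1, Cab39, Golga5, Slc35b2, Uso1, Kars and Ptbp1. Slc35a1 carries the sialic acid donor into the Golgi. Its 12 week levels ran from 6.43 to 8.37 with a median of 7.78, and at 20 weeks it read 3.23, 4.64, 4.85, 4.60 and 5.11, with no overlap. The change was -3.23 (SE 0.44, adjusted p = 0.000455), and -2.91 without replicate 1 (adjusted p = 0.000783). Golga5, a golgin of the Golgi rim, fell by 3.09 to a level near background (adjusted p = 0.00131), and by 2.97 without replicate 1 (adjusted p = 0.00313). Slc35b2, which imports the sulfate donor, fell by 3.08 with overlapping ages (adjusted p = 0.00532), and by 2.57 without replicate 1 (adjusted p = 0.0181). Abo, the glycosyltransferase of the ABO antigens, ranged from 7.50 to 9.51 at 12 weeks and read 2.94, 6.11, 4.64, 5.25 and 7.80 at 20 weeks. Its change of -3.61 (SE 0.76, adjusted p = 0.00460) was -3.01 without replicate 1 (adjusted p = 0.0155), and 20 weeks replicate 5 lay inside the 12 week range.

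**Figure D3:**
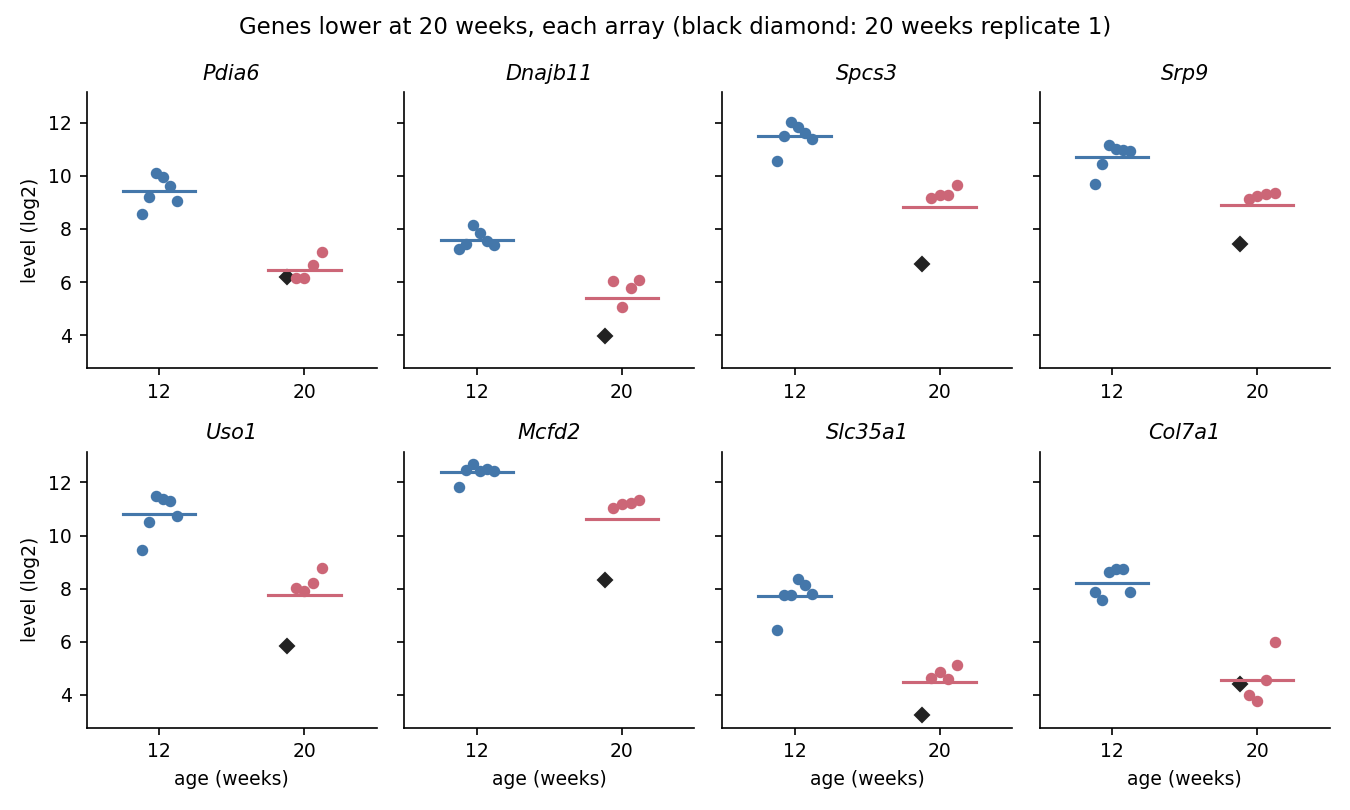
Log2 level of 8 genes that were lower at 20 weeks, with 1 point per array at 12 weeks (blue, n = 6) and 20 weeks (red, n = 5); lines are means and the black diamond is 20 weeks replicate 1. In all 8 panels the 2 ages do not overlap; the diamond is far below the other 20 week arrays for Mcfd2 (8.31) and Spcs3 (6.69) but among them for Pdia6 (6.20) and Col7a1 (4.41).

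Of 19 tested genes of regulated exocytosis, 4 were lower and 1 was higher, where 16.2% of all genes were lower and 8.72% higher. Without replicate 1 the count was 1 in each direction, where 8.06% of all genes were lower and 2.27% higher. Vamp8, a granule membrane protein needed for fusion, ranged from 10.07 to 11.16 at 12 weeks with a median of 10.49 and read 7.54, 9.48, 9.33, 9.39 and 10.24 at 20 weeks. The ages overlapped at replicate 5, and the change was -1.35 (adjusted p = 0.0128), or -0.93 without replicate 1 (adjusted p = 0.0355). Rab27a, a GTPase of granule docking, changed by -1.53 (adjusted p = 0.0238), and by -1.03 without replicate 1, where it did not pass (adjusted p = 0.0802). Stx4a, a target membrane syntaxin, was the higher gene: it rose from near background by 1.06 (adjusted p = 0.0334) and by 1.46 without replicate 1 (adjusted p = 0.00296).

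Of 18 tested water channels and ion transporters, 4 were lower and 1 higher with all arrays, and 3 and 1 without replicate 1. Among all genes 16.2% were lower and 8.72% higher, and 8.06% and 2.27% without replicate 1. Aqp8, a channel for water and small solutes, ranged from 7.96 to 9.20 with a median of 8.73 at 12 weeks and read 2.67, 6.68, 6.93, 5.88 and 8.20 at 20 weeks. Replicate 1 was near background while replicate 5 lay within the 12 week range. The change was -2.59 (SE 0.60, adjusted p = 0.00787), and -1.74 without replicate 1 (adjusted p = 0.00953). Atp1b3, a subunit of the sodium pump, changed by -1.67 (adjusted p = 0.0194) and by -1.05 (adjusted p = 0.0486). Aqp1, a channel of vessels and some ducts, changed by -1.11 (adjusted p = 0.0229) with means near background at both ages (3.79 and 2.68).

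Aqp5, the apical water channel of acinar cells, did not pass the test. Its 12 week levels ran from 10.92 to 11.42 with a median of 11.38, and at 20 weeks it read 8.09, 10.31, 10.46, 10.71 and 11.45. All but 1 of the 20 week arrays lay below the 12 week range. The change was -1.09 with an SE of 0.77 in the fit over all ages (adjusted p = 0.261), and -0.56 without replicate 1 (adjusted p = 0.614). That fit pools the spread within all ages, and an array outside the comparison was far off. On 16 weeks replicate 4 Aqp5 read 4.90, where the other 16 week arrays read 10.59 to 11.12. Aqp5 was not called in any of the 26 settings, but a missing call does not mean an unchanged level.

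Receptors and calcium signals that trigger secretion gave 5 lower genes and 1 higher gene of 16 tested, and 2 and 1 without replicate 1. The shares over all genes were 16.2% lower and 8.72% higher, and 8.06% and 2.27% without replicate 1. Gna11, a G protein subunit that couples muscarinic receptors to calcium release, ranged from 7.20 to 7.92 at 12 weeks with a median of 7.77 and read 5.95, 6.77, 6.38, 6.91 and 7.14 at 20 weeks. The ages did not overlap, and the change was -1.08 (SE 0.24, adjusted p = 0.00626), or -0.91 without replicate 1 (adjusted p = 0.0214). Under quantile normalization it was -0.18 (adjusted p = 0.479). Gnaq, the closest relative of Gna11, was higher by 2.13 on its chosen probe set (adjusted p = 0.0331), but its 7 probe sets disagreed: their mean changed by 0.06. No direction is given for Gnaq on that account. The muscarinic receptor Chrm3 was not above the test's filter, with means of 2.53 and 2.62.

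Of 16 tested genes of secreted products 1 was lower and none higher with all arrays, and none was lower and 1 higher without replicate 1. Among all genes 16.2% were lower and 8.72% higher, and 8.06% and 2.27% without replicate 1. The lower gene was Egf, a growth factor, with 12 week levels from 7.21 to 12.99, a median of 11.22, and 20 week levels of 5.10, 7.71, 7.49, 7.17 and 7.44. The 12 week arrays were widely spread and overlapped the 20 week arrays, and the change of -3.66 (SE 1.08, adjusted p = 0.0246) did not pass without replicate 1 (-3.19, adjusted p = 0.0743). Salivary gland markers, which mark a tissue that also makes Egf, varied widely at both ages. The mean of the 8 salivary genes with a probe set ran from 5.61 to 8.87 at 12 weeks and from 4.90 to 8.38 at 20 weeks (exact permutation p = 0.522, n = 6 and n = 5), and their part in the Egf result was not tested. Car6, the secreted carbonic anhydrase, averaged 14.25 ± 0.294 (SD, n = 6) at 12 weeks and 13.47 ± 0.952 (SD, n = 5) at 20 weeks (adjusted p = 0.0589). Lyz2, a lysozyme, averaged 10.73 and 9.48 (adjusted p = 0.0566).

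Epithelial identity genes were mostly not called. Of 13 tested epithelial transcription factors 1 was lower, and Bhlha15, the factor that shapes the secretory architecture of acinar cells, averaged 12.26 ± 0.311 (SD, n = 6) and 11.03 ± 0.917 (SD, n = 5). It changed by -1.23 (adjusted p = 0.160), or by -0.85 without replicate 1 (adjusted p = 0.399), although no 20 week array reached the 12 week range. On 16 weeks replicate 4 it read 6.08, against 11.4 to 11.7 on the other 16 week arrays, and the fit pools that spread. Bhlha15 was called in 2 of 26 settings. Of 17 duct and myoepithelial genes 5 were lower, and 3 without replicate 1: Cldn3, a tight junction protein (-2.45, then -1.99), Epcam, an epithelial adhesion protein (-2.50, then -2.24), and Krt8, a keratin of simple epithelia (-1.24, then -0.76). None of these 3 passed with array SD as a covariate. The share of lower genes over all genes was 16.2%, and 8.06% without replicate 1.

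Housekeeping groups with high signal were compared with all genes over 7, of which 31.4% were lower, and 16.2% without replicate 1. Cytosolic ribosomal proteins gave 5 lower of 21, with 1 lower and 1 higher without replicate 1, and lysosomal and autophagy genes 4 of 23, with 2 without it. Of 18 tested SR proteins and splicing regulators 13 were lower, and 7 without replicate 1, with medians of -1.37 and -1.10 and none higher. Srsf5, an SR protein of splice site choice, ranged from 6.47 to 9.73 with a median of 8.87 at 12 weeks and read 5.03, 3.68, 5.02, 5.16 and 6.11 at 20 weeks. Here replicate 1 was not the lowest and the ages did not overlap. The change was -3.59 (SE 0.53, adjusted p = 0.000661), a 12.1-fold fall with and without replicate 1. Ptbp1, a splicing repressor, fell by 3.02 on its chosen probe set (adjusted p = 0.00301), by 2.37 without replicate 1 (adjusted p = 0.00661), and by 0.78 when its 3 probe sets were averaged. Srsf6 fell by 1.71 (adjusted p = 0.00176), with a change of -1.33 without replicate 1 (adjusted p = 0.00210), with no overlap between ages.

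Of 30 tested tRNA synthetases and ATF4 targets 14 were lower and 1 higher, and 10 and none without replicate 1. Among all genes over 7, 31.4% were lower, and 16.2% without replicate 1. Kars, which charges tRNA with lysine, ranged from 7.001 to 9.07 at 12 weeks with a median of 8.03, and read 3.44, 4.98, 4.45, 5.34 and 6.94 at 20 weeks. The gap between the ages was narrow at replicate 5, and the change was -3.04 (SE 0.62, adjusted p = 0.00394), or -2.65 without replicate 1 (adjusted p = 0.0133). Rars, the arginine enzyme, changed by -1.99 (adjusted p = 0.00398) and by -1.49 without replicate 1 (adjusted p = 0.00755). Slc3a2, the heavy chain of amino acid exchangers, changed by -2.17 (adjusted p = 0.00460) and by -1.51 (adjusted p = 0.00313).

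Of 35 tested oxidative phosphorylation genes 13 were lower and none higher, and 7 without replicate 1, shares near those of all genes over 7 (31.4% and 16.2%). The list's median was -1.32 and -0.70, but 0.05 with array SD as a covariate. Sdhc, a membrane anchor of succinate dehydrogenase, fell by 2.98 (adjusted p = 0.00171) and by 2.50 without replicate 1 (adjusted p = 0.00433). Its 12 week levels ran from 7.32 to 9.56 and its 20 week levels were 3.95, 5.93, 5.61, 6.38 and 7.55, with overlap at replicate 5 alone. Uqcrfs1, the iron-sulfur subunit of complex III, fell by 1.66 (adjusted p = 0.00301), with a change of -1.297 without replicate 1 (adjusted p = 0.00651), with no overlap. Of 18 fatty acid oxidation genes 9 were lower and none higher, with 6 and 1 without replicate 1. Acadvl, the dehydrogenase of very long chains, ranged from 7.17 to 9.15 and then read 5.51, 5.59, 5.72, 4.99 and 7.05, a change of -2.21 (adjusted p = 0.00249), or -2.15 without replicate 1 (adjusted p = 0.00661).

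Antioxidant enzymes gave 7 lower genes and none higher of 18 tested, and 4 lower without replicate 1. Among all genes over 7, 31.4% were lower, and 16.2% without replicate 1. Txn2, the mitochondrial thioredoxin, ranged from 7.83 to 8.40 with a median of 8.19 at 12 weeks and read 6.93, 6.91, 6.52, 6.62 and 6.82 at 20 weeks. The SD was 0.182 (n = 5), replicate 1 was the highest of the 5, and the change was -1.39 (SE 0.14, adjusted p = 1.92e-05) or -1.43 without replicate 1 (adjusted p = 2.67e-05). Quantile normalization of all arrays gave -0.43 (adjusted p = 0.363), while array SD as a covariate gave -1.32 (adjusted p = 0.000216). Of 25 tested proteasome genes 10 were lower and none higher, and 3 and 1 without replicate 1, where 16.2% of all genes over 7 were lower. Psmd4, a ubiquitin receptor of the proteasome, fell by 1.82 without overlap (adjusted p = 0.00170), and by 1.68 without replicate 1 (adjusted p = 0.00531).

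Of 23 tested genes of cell division 8 were lower and 3 were higher with all arrays, where 16.2% and 8.72% of all genes were. Without replicate 1, 6 were lower and none higher, and the medians were -1.06 and -0.76. With array SD as a covariate limma called none, with a median of -0.43 and 7 of the 23 at an unadjusted p under 0.05. Mki67, the marker of cycling cells, ranged from 6.40 to 9.70 with a median of 7.30 at 12 weeks and read 5.05, 5.32, 5.04, 5.36 and 4.60 at 20 weeks. The 20 week arrays were close together and all below the 12 week range. The change was -2.77 (SE 0.68, adjusted p = 0.0105) and -2.76 without replicate 1 (adjusted p = 0.0238).

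Cdt1, which licenses replication origins and was not on the list, fell by 3.38 from 6.72 to a mean near background of 3.33 (adjusted p = 0.00218), or by 3.08 without replicate 1 (adjusted p = 0.00661), and its ages did not overlap. Mcm7, a subunit of the replicative helicase, fell by 2.72 (adjusted p = 0.00992), or 2.43 without replicate 1 (adjusted p = 0.0323), and Pcna, the polymerase clamp, fell by 2.16 (adjusted p = 0.0116), or 1.61 without replicate 1 (adjusted p = 0.0382). With array SD as a covariate Mki67 changed by -2.43 (adjusted p = 0.0811). At 16 weeks Mki67 averaged 4.98 and Cdt1 3.54, against 6.61 and 4.98 at 8 weeks, and the 12 week mean was the highest of the 5 ages for both.

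Of the genes called in both fits Col7a1, the collagen of anchoring fibrils under epithelia, had the largest fall. Prol1 and Crisp3, named after their values were seen, changed by -5.53 each (adjusted p = 0.0316 and 0.0323), but did not pass without replicate 1 (adjusted p = 0.0926 and 0.0746). Col7a1 ranged from 7.56 to 8.73 with a median of 8.25 at 12 weeks and read 4.41, 3.99, 3.78, 4.54 and 5.97 at 20 weeks. No arrays overlapped and replicate 1 was in the middle, and the change was -3.69 (SE 0.52, adjusted p = 0.000575), or 12.9-fold lower, and -3.65 without it (adjusted p = 0.000893). Pik3r1, the regulatory subunit of PI3-kinase, fell by 3.47 (adjusted p = 0.00171), or by 2.77 without replicate 1 (adjusted p = 0.00296); averaging its 4 probe sets gave a fall of 1.51. Cab39, a scaffold of the kinase LKB1, fell by 3.14 (adjusted p = 0.00249), or 2.87 without replicate 1 (adjusted p = 0.00764), with 12 weeks replicate 1 inside the 20 week range.

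Immediate early genes gave 6 lower and none higher of 22, and 2 lower without replicate 1. Among all genes 16.2% were lower, and 8.06% without replicate 1, so the count without that array was near the share of all genes. Zfp36, which destabilises cytokine mRNAs, ranged from 4.28 to 7.13 with a median of 6.13 at 12 weeks and read 3.57, 3.54, 3.54, 3.25 and 3.62 at 20 weeks. All 20 week arrays were near background, so its change of -2.52 (SE 0.48, adjusted p = 0.00255), or -2.53 without replicate 1 (adjusted p = 0.00577), is a lower bound. Btg2, an antiproliferative gene, fell by 1.58 (adjusted p = 0.00737) and by 1.22 without replicate 1 (adjusted p = 0.0232).

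In 26 settings, 176 lower and 7 higher genes were called in the same direction in every setting that tested them. Some settings tested fewer genes, such as 8030 with the 75th percentile filter. The settings covered normalization, filters, probe set choice, covariates and each array left out. Leaving out any 1 of the 11 arrays at these ages kept 863 lower and 77 higher calls.

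**Figure D4:**
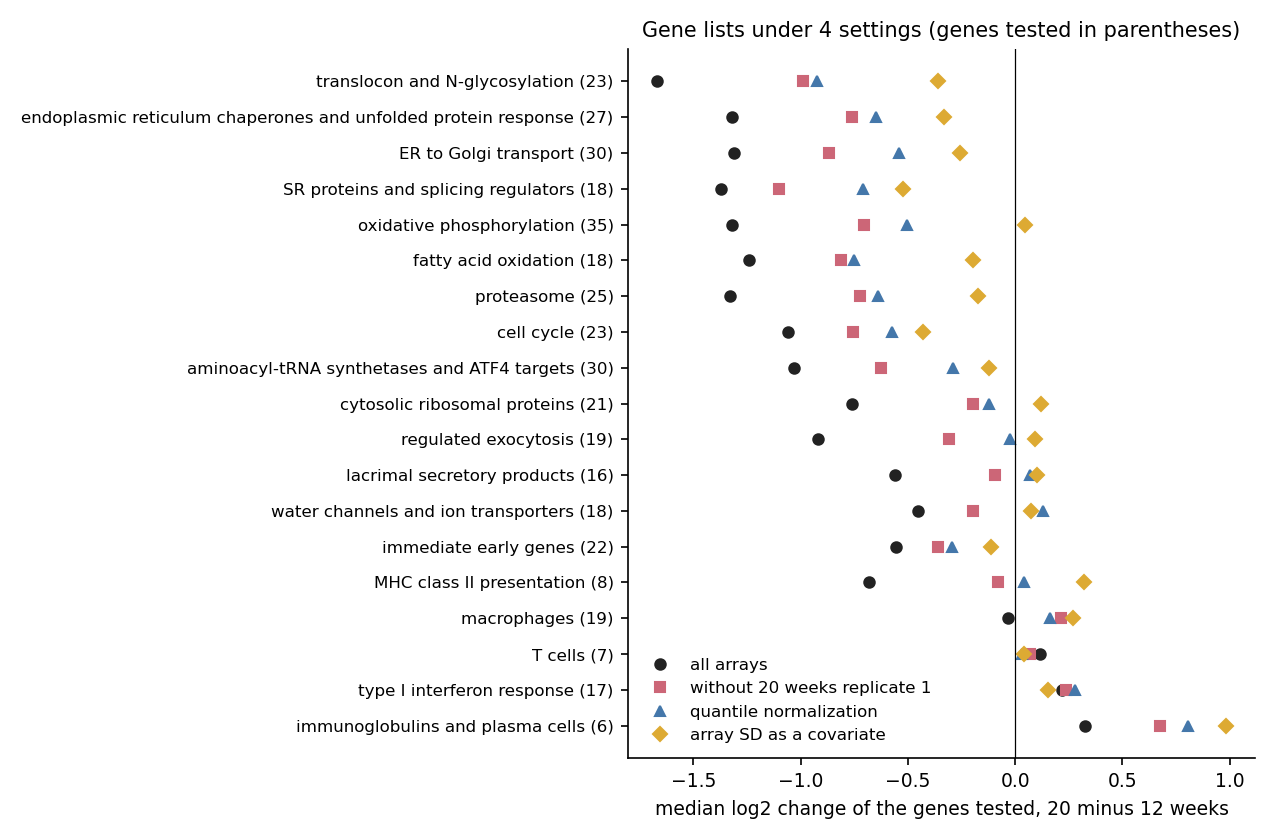
Median log2 change from 12 to 20 weeks of the tested genes of 19 lists, with the number tested in parentheses; black circles are all arrays, red squares leave out 20 weeks replicate 1, blue triangles follow quantile normalization and yellow diamonds have array SD as a covariate. The 3 lists of the endoplasmic reticulum and Golgi lie below 0 in all 4 settings, from -1.67 to -0.26, while oxidative phosphorylation runs from -1.32 to 0.05 and immunoglobulins stay above 0.

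Of the 1079 genes called higher with all arrays 178 were also called without 20 weeks replicate 1, the array with the highest median (3.22). The genes with the largest rises in both fits are described here, and most of these were low on that array. Pabpc4l, a relative of the poly(A)-binding protein, was near background at 12 weeks, from 3.38 to 4.69 with a median of 3.77. It read 3.97 on 20 weeks replicate 1 and 8.06, 7.52, 7.75 and 7.09 on the others. Replicate 1 was thus at the 12 week level while the other 4 arrays were far above it. The rise was 2.89 (SE 0.59, adjusted p = 0.00375) with all arrays and 3.62 (SE 0.45, adjusted p = 0.000266) without replicate 1, and the mean of its 2 probe sets rose by 1.54. At 16 weeks the 5 arrays lay between 4.16 and 7.76, with a mean of 5.92.

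Gsdme, a gasdermin that forms membrane pores in dying cells, showed the same layout. Its 12 week levels ran from 3.31 to 4.91 with a median of 3.52, and its 20 week levels were 3.71, 7.12, 6.99, 6.27 and 6.80. It rose by 2.44 (SE 0.55, adjusted p = 0.00681) and by 3.06 without replicate 1 (adjusted p = 0.000881), and its mean at 16 weeks was 6.02.

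Rnf216, a ubiquitin ligase, differed from these in its timing. It was near background on all 12 week arrays, from 3.76 to 3.93, and read 3.91 on 20 weeks replicate 1 and 6.07, 6.13, 5.96 and 5.94 on the rest. The rise was 1.78 (SE 0.26, adjusted p = 0.000655), and without replicate 1 it was 2.20 (SE 0.11, adjusted p = 1.30e-11), the smallest adjusted p of the genes named. At 16 weeks its arrays lay between 3.82 and 4.39. Pabpc4l, Gsdme and Rnf216 were called in all 26 settings.

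Fam107a was higher by 2.29 (adjusted p = 0.0302) and by 3.29 without replicate 1 (adjusted p = 0.000460). Replicate 1 read 3.21, below all 12 week arrays (3.39 to 6.96), and the others read 7.43, 7.99, 8.76 and 8.68. Dpp9, a dipeptidyl peptidase that restrains inflammasomes, was higher by 1.88 (adjusted p = 0.0276) and by 2.67 without replicate 1 (adjusted p = 0.000460). Sulf2, a heparan sulfate endosulfatase, was higher by 1.73 (adjusted p = 0.0498) and by 2.65 (adjusted p = 0.000709), but by 0.42 when its 3 probe sets were averaged. Pdpn, a glycoprotein of lymphatic vessels and stroma, was higher by 1.95 (adjusted p = 0.0425) and by 2.76 (adjusted p = 0.00433). Msln, a surface protein of mesothelium and some epithelia, rose by 2.02 (adjusted p = 0.0253) and by 2.43 without replicate 1 (adjusted p = 0.0163), and its arrays overlapped with and without replicate 1. Zfp263, a zinc finger factor, and Ntmt1, an N-terminal methyltransferase, rose by 1.86 and 1.67 (adjusted p = 0.0386 and 0.0402), and by 2.66 and 1.99 without replicate 1 (adjusted p = 0.00210 and 0.0358).

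Dbp, a clock output gene with a strong daily rhythm, was higher by 2.46 (SE 0.75, adjusted p = 0.0285) and by 2.97 without replicate 1 (adjusted p = 0.0183). Here the 12 week arrays were the unusual ones: they read 5.03, 4.26, 6.96, 5.23, 8.99 and 9.02. All arrays at 4, 8 and 16 weeks lay between 7.94 and 10.56, and those at 20 weeks read 6.97, 9.12, 9.31, 9.36 and 10.44. The circadian clock list had 16 tested genes, with 1 higher, 1 lower and a median change of -0.23. Without 20 weeks replicate 1, 1 was higher and none lower. The lower gene was Clock, which changed by -1.62 (adjusted p = 0.0323), and by -1.26 without replicate 1 (adjusted p = 0.105). The average of its 4 probe sets changed by -0.65. Clock also did not pass under quantile normalization (adjusted p = 0.0632) or with array SD as a covariate (adjusted p = 0.414). Per2 (0.59, adjusted p = 0.0631) and Nfil3 (-0.84, adjusted p = 0.0750) did not pass. No source used here gives the hour of dissection, and its part in the Dbp result was not tested.

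**Figure D5:**
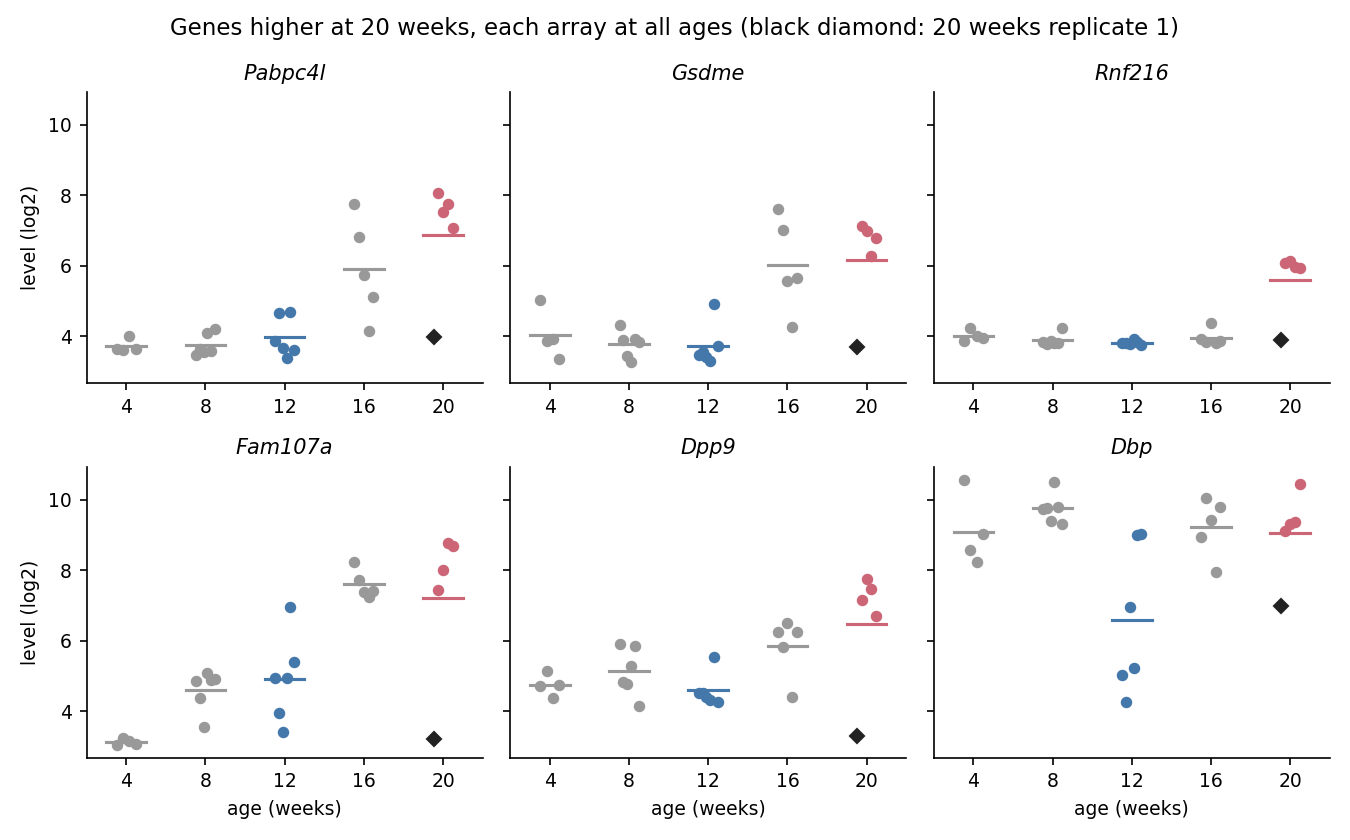
Log2 level of 6 genes that were higher at 20 weeks, with 1 point per array at 4 weeks (n = 4), 8 weeks (n = 6), 12 weeks (n = 6, blue), 16 weeks (n = 5) and 20 weeks (n = 5, red); lines are means and the black diamond is 20 weeks replicate 1. Pabpc4l, Gsdme, Fam107a and Dpp9 are already above 12 weeks on most 16 week arrays, Rnf216 is not, and Dbp is below 7 on 4 of the 12 week arrays and on the diamond.

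Few immune genes were called between the labelled influx and the labelled dysfunction. The shares over all genes were 16.2% lower and 8.72% higher, and 8.06% and 2.27% without replicate 1. Of 21 T cell genes on the list 18 had a probe set and 7 were tested, 6 of them near background at both ages. By limma 1 was called higher with all arrays and none without replicate 1, where 1 had an unadjusted p under 0.05. The mean of the T cell list was 2.90 ± 0.224 (SD, n = 6) at 12 weeks and 2.96 ± 0.131 (SD, n = 5) at 20 weeks (exact permutation p = 0.645). For B cells it was 3.10 ± 0.480 and 3.07 ± 0.114 (exact permutation p = 0.987, n = 6 and n = 5). One array stood apart, 12 weeks replicate 4, with means of 4.06 for B cells and 3.33 for T cells, where the other 12 week arrays read 2.79 to 3.02 and 2.70 to 2.94. The T cell markers Cd3e (3.05 and 3.09) and Cd8a (3.38 and 3.49) averaged near background at both ages, while Cd4 averaged 3.67 and 4.22. The B cell genes Ms4a1 (4.70 and 4.86) and Tnfrsf13c (4.57 and 4.65) were above that limit. Of 19 macrophage genes 1 was higher with all arrays, and none without replicate 1. C1qa, a complement component made by macrophages, read 2.75, 6.31, 6.83, 6.93 and 8.62 at 20 weeks against 7.53 to 8.16 at 12 weeks (change -1.57, adjusted p = 0.0657).

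Some antibody genes were higher at 20 weeks. Of 6 tested immunoglobulin and plasma cell genes 2 were higher in each fit, with median changes of 0.33 and 0.68. Only Ighm was higher in both, with Iglv1 the other gene with all arrays and Igkv8-30 without replicate 1. Among all genes 8.72% were higher, and 2.27% without replicate 1. Ighm, the IgM heavy chain, ranged from 3.39 to 5.47 with a median of 3.92 at 12 weeks and read 4.78, 4.07, 7.85, 5.41 and 6.82 at 20 weeks. Arrays 3 and 5 were clearly above the 12 week range and the rest were within it. The rise was 1.64 (SE 0.47, adjusted p = 0.0217), or 1.89 without replicate 1 (adjusted p = 0.0194), and 0.64 when its 11 probe sets were averaged. Igkv8-30, a kappa light chain segment, ranged from 8.00 to 9.29 at 12 weeks and read 6.37, 9.84, 10.50, 10.23 and 11.03 at 20 weeks. Every array but replicate 1 was above the 12 week range: the change was 0.80 with all arrays (adjusted p = 0.288) and 1.61 without replicate 1 (adjusted p = 0.0209). Segments of this family share sequence, so its signal can come from other kappa chains.

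Of 17 tested type I interferon genes 2 were higher in each fit and none lower, where 8.72% and 2.27% of all genes were higher. Only Ifit1 was higher in both, with Ifit2 the other gene with all arrays and Irf9 without replicate 1. Ifit1, an interferon-induced protein that binds foreign RNA, was near background on all 12 week arrays, from 2.01 to 2.29, and read 2.22, 2.32, 5.47, 4.22 and 4.198 at 20 weeks. Replicates 3, 4 and 5 were clearly above the 12 week range, with a change of 1.52 (adjusted p = 0.0377) and of 1.89 without replicate 1 (adjusted p = 0.0230). Higher readings were not limited to 20 weeks: Ifit1 read 4.064 and 4.155 on 8 weeks replicates 3 and 5, and 2.489 to 5.255 at 16 weeks. Irf9, a subunit of the interferon-activated transcription factor, changed by 0.84 (adjusted p = 0.0762) and by 1.22 without replicate 1 (adjusted p = 0.0201). Its 12 week mean of 5.96 was below those at 4 weeks (6.61), 8 weeks (6.63), 16 weeks (6.95) and 20 weeks (6.80). None of the 8 tested MHC class II genes or the 10 MHC class I genes was called by limma in either fit, where 1 and 2 of them had an unadjusted p under 0.05 with all arrays. Cd74, the invariant chain of class II, read 6.25 on 20 weeks replicate 1 and 10.06 to 11.30 on the others, against 11.08 to 12.08 at 12 weeks (change -1.69, adjusted p = 0.101).

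Relb, a subunit of the non-canonical NF-kB pathway of lymphoid tissue, fell by 1.38 to near background (adjusted p = 0.00861), with no overlap between ages, and by 1.40 without replicate 1 (adjusted p = 0.0186). Ltbr, a receptor that feeds that pathway, changed by -0.70 (adjusted p = 0.0221), but by 0.25 under quantile normalization (adjusted p = 0.594), so no direction is given for it.

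Among Sjögren autoantigens, Ssb, the La protein, ranged from 6.67 to 8.61 at 12 weeks with a median of 8.23 and read 5.64, 5.90, 6.33, 6.84 and 6.78 at 20 weeks. It fell by 1.64 (adjusted p = 0.00877) and by 1.48 without replicate 1 (adjusted p = 0.0282), with 12 weeks replicate 1 inside the 20 week range. Trim21, the Ro52 protein, was near background at both ages (3.31 and 3.58, adjusted p = 0.327). Of 5 tested candidate genes in the introduced intervals 1 was lower, and none without 20 weeks replicate 1, where 16.2% and 8.06% of all genes were. The lower gene was Acadl, which changed by -1.50 (adjusted p = 0.0190), and by -0.99 without replicate 1 (adjusted p = 0.0552). Il2 (3.31 and 3.47) and Ctla4 (3.23 and 3.35) were near background at both ages and did not pass. Il21 and Icos were below the test's filter.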

How the data were processed

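Total RNA of 26 lacrimal gland samples was hybridised to 1-colour Affymetrix arrays. The deposited values are log2 expression levels made by the authors; RMA and GCRMA are named in the submitters' processing notes, and their versions and roles are not given in the sources used here. Arrays do not all share 1 distribution, so values were used as deposited. Of 45101 probe sets, 34958 carried 1 gene symbol, 932 several and 9211 none; of several probe sets for a gene, that with the highest mean log2 value was taken. Genes above the array median on 4 or more arrays were tested with limma 3.58.1 in R 4.3.3 (lmFit and eBayes, 1 mean per age over all arrays, two-sided, Benjamini-Hochberg over 12376 genes). Array measures used exact permutation tests; the smallest two-sided p for 6 against 5 is 0.00433. The number of arrays limits the precision. Named genes were the 12 largest rises and 12 largest falls called with and without 20 weeks replicate 1, up to 4 genes of each list by p, and a few candidates; Hsp90b1, Creld2, Hspa5, Prol1 and Crisp3 were added after their values were seen. The members and lists were chosen with earlier results of these data known. The fit was tested on simulated data. Alternatives covered normalization, filters, probe sets, covariates, the replicate number as a block and each array left out; those combined with leaving out 20 weeks replicate 1 were added after the data were seen.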

Additional observations from a re-analysis of the deposited data

Results flagged for a closer look

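Gaps between 1 array and the rest of its age were tested for the named genes and the array measures. Of 192 groups, 42 had such a gap (21.9%), where chance gives about 1 in 20. On 20 weeks replicate 1 the spread of the array was low (1.36), and so were the levels of Hsp90b1 (8.09), Creld2 (4.12), Spcs3 (6.69), Srp9 (7.42), Mcfd2 (8.31), Slc35a1 (3.23), Rars (4.75), Slc3a2 (6.13), Prdx3 (4.93), Pcna (5.23), Btg2 (3.26), Egf (5.10), Cd74 (6.25) and Igkv8-30 (6.37). The same array was low for Gnaq (5.57), and for the higher genes Pabpc4l (3.97), Gsdme (3.71), Fam107a (3.21), Pdpn (3.11), Dpp9 (3.29), Zfp263 (4.54), Rnf216 (3.91) and Sulf2 (5.76).

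On 12 weeks replicate 1, which had the lowest spread of its age (1.96), low values were found for Abo (7.50), Aqp5 (10.92), Cab39 (5.08), Ddost (6.64), Epcam (6.24), Fut8 (6.77), Gna11 (7.20), Hsp90b1 (11.19), Mcfd2 (11.82), Pdia3 (8.86), Prdx3 (7.55), Slc35a1 (6.43) and Slc35b2 (7.30). Trim21 was low on 12 weeks replicate 2 (2.37) and Zfp36 on 20 weeks replicate 4 (3.25). Dpp9 (5.53) and Gsdme (4.91) were high on 12 weeks replicate 5, and Fut8 (6.76) on 20 weeks replicate 2.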

How the results depend on the processing

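Both the number of changed genes and the split between higher and lower depended on the setting. Higher genes made up 35.1% of those called, 62.0% with no filter, 52.6% with quantile normalization, 54.1% with array SD as a covariate, 10.7% with median centring and 1.54% with only the arrays at 12 and 20 weeks. Against 3078 changed (1079 higher, 1999 lower), there were 5697 (3534 higher) with no filter, 5184 (2157 and 3027) with array weights, 1680 (279 higher) with adipose and salivary list means as covariates, 560 (303 and 257) with array SD as a covariate, and 520 (8 and 512) with only the arrays at 12 and 20 weeks. Median centring gave 237 higher genes, the 75th percentile filter 171, and quantile normalization 1051 lower genes. A change of at least 2-fold left 1686 genes, 51 of them higher. Leaving out 16 weeks replicate 4 together with 20 weeks replicate 1 gave 1664 (357 and 1307). With 1 array left out, the count ran from 1101 to 5014 (108 to 2237 higher, 993 to 2777 lower). At 12 weeks it moved by over 1.5 times when replicate 3 (1593), 4 (1101), 5 (1230) or 6 (1576) was left out, and at 20 weeks replicate 1 (1279), 4 (1729) or 5 (5014). Leaving out replicate 1 or 2 at 12 weeks also moved the higher count (1835 and 1949).

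Without 20 weeks replicate 1, the count was 1279; it was 768 with array SD as a covariate and 4888 with array weights, and ran from 436 to 2179 with a further array left out, where each array but 12 weeks replicate 6 moved it by over 1.5 times. The labels state no pairing by replicate number, and whether arrays with the same number are linked was not tested. Same-number correlations of deviations ran from -0.16 to 0.489. The highest were 0.48 for replicate 1 and 0.489 for replicate 5, and these 2 of 5 arrays matched best with their own number. With the replicate block 1900 genes changed (285 higher, 1615 lower).

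The spread difference of -0.283 ran from -0.346 to -0.155 with 1 array left out, and did not pass without any 1 of 12 weeks replicates 3 to 6 or 20 weeks replicate 1. The actin 3' minus 5' difference of 0.192 ran from -0.0778 to 0.481, and was negative without 20 weeks replicate 1. Among the genes, the sign turned for Aqp5 (0.533), Bhlha15 (0.0309), Cd74 (0.115) and Il2 (-0.00938) with array SD as a covariate, for Car6 (0.741) after median centring with a common SD, for Ltbr (0.25) after quantile normalization, and for Gnaq (-0.242) without probe sets that can match several transcripts. The causes were not tested.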

Other observations

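Single genes of lipid synthesis and glycosylation were also lower at 20 weeks. Among all genes 16.2% were lower and 8.72% higher, and 8.06% and 2.27% without 20 weeks replicate 1. The fatty acid synthesis genes had a median level of 7.1, and 31.4% of all genes over 7 were lower. For fatty acid synthesis and glycosyltransferases the counts of lower genes were near or under these shares. Of 15 tested genes of fatty acid synthesis 3 were lower, and 2 without 20 weeks replicate 1. Me1, the malic enzyme that supplies reducing power for fatty acid synthesis, ranged from 7.92 to 8.43 at 12 weeks and read 5.32, 6.36, 6.01, 6.32 and 6.50 at 20 weeks. It fell by 2.03 (SE 0.31, adjusted p = 0.000899) and changed by -1.84 without replicate 1 (adjusted p = 0.00210), and was called in all 26 settings. Ebp, a sterol isomerase of cholesterol synthesis, fell by 2.79 (adjusted p = 0.00835), or 2.26 without replicate 1 (adjusted p = 0.0289), and 5 of 15 tested genes of that pathway were lower and none higher, or 3 without 20 weeks replicate 1. Of 21 tested glycosyltransferases 2 were lower and 1 higher, with a median change of -0.12: Galnt2, which starts O-linked chains, fell by 1.65 (adjusted p = 0.00249) and Fut8, which adds core fucose, fell by 1.92 (adjusted p = 0.00359), though the mean of the 3 probe sets of each changed by -0.41 and -0.50. Without replicate 1 they fell by 1.54 and 1.87 (adjusted p = 0.00736 and 0.00922), and Fut8 did not pass under quantile normalization (adjusted p = 0.0951).

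Of 19 tested apoptosis genes 5 were lower and 1 higher, and 4 and none without replicate 1. Among all genes 16.2% were lower and 8.72% higher, and 8.06% and 2.27% without replicate 1. Diablo, a mitochondrial protein that frees caspases, fell by 1.87 (adjusted p = 0.000701), Birc2, an inhibitor of apoptosis, fell by 2.65 (adjusted p = 0.00183), and Bok, of the Bcl-2 family, fell by 2.65 (adjusted p = 0.00700). Without replicate 1 they fell by 1.68, 2.33 and 2.30 (adjusted p = 0.00166, 0.00566 and 0.0239). Diablo and Birc2 were called in every setting, though the mean of the 2 probe sets of Diablo changed by -0.84, and Bok did not pass with array SD as a covariate (adjusted p = 0.0980). Prdx3, a mitochondrial peroxidase, read 7.55 to 9.83 at 12 weeks and 4.93, 6.49, 6.79, 6.79 and 6.97 at 20 weeks, and fell by 2.80 (adjusted p = 0.00616), or 2.43 without replicate 1 (adjusted p = 0.0210). Prdx3 and Ebp did not pass with array SD as a covariate (adjusted p = 0.0757 and 0.0653). Etfdh, which passes electrons from fatty acid oxidation to ubiquinone, fell by 2.05 (adjusted p = 0.00360), or 1.97 without replicate 1 (adjusted p = 0.00999) and 0.89 as an average of its 2 probe sets.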
